A study of Mus musculus with 21 samples.

Results

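The 216 peaks described here are p53 binding intervals that the authors listed as specific to cells with intact Trp53. The authors annotated them as free of repeats and as outside promoters, 5' UTRs and introns. They were found by joining the authors' feature annotation and repeat annotation on position, keeping intervals marked as free of repeats whose feature was intergenic, exon or 3' UTR. They make up 10.2% of the 2127 WT-specific peaks. Of the 216, 175 were intergenic, 17 were annotated to an exon and 24 to a 3' UTR. No signal value entered this choice beyond whatever the authors used to call the peaks and list them as WT-specific. The study used ID8, a C57BL/6 mouse ovarian surface epithelial line, immortalized, untreated and growing asynchronously. The groups compared were Trp53+/+ (WT) and Trp53-/- (KO) ID8 cells, which share that background and differ by label in both copies of Trp53, and whether either genotype is a single clone was not given in the sources used here. In each genotype p53 contacts were mapped in 2 samples by CUT&RUN, in which an antibody guides a nuclease to cut out the DNA that its target occupies. The authors deposited 1 list of intervals per genotype, 6811 for WT and 9784 for KO, without heights, scores or read counts.

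The p53 protein is a transcription factor that is stabilised by DNA damage and other stress and switches on genes for cell cycle arrest, cell death, DNA repair and metabolic control. It binds as a tetramer to a response element made of paired half-sites, each with a C and a G around a central A/T step, and such elements lie in promoters, introns, distant intergenic enhancers and retroviral repeats. The KO list, made with the same antibody in cells that lack the gene, is the background measured in the assay.

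The p53 element is shown first, because it is the sequence by which p53 binding is usually recognised. Sequence in hand covered only windows of 300 bases around RefSeq start sites (250 before to 50 after, build GRCm38.p6), and 4 of the 216 peaks reached into such a window, all of them at start sites of noncoding genes. The closest match without a spacer in each was the following 20 bases, read 5′ to 3′ on the plus strand, with the 4 central bases of each half-site in capitals. The last lines give, for comparison, matches at start sites that lie wholly inside other WT-specific peaks, at Cdkn1a, which encodes the cell cycle inhibitor p21, and Ccng1, which encodes cyclin G1.
Peak at Gm41624: agcTTTGcacgcgCTTGctt
Peak at Gm29985: gagACAGccttacCCTGctt
Peak at Gm52524: gacCAGGcctggtCATCtat
Peak at Gm30448: gggCTAGgtgaggAAATtat
Cdkn1a promoter: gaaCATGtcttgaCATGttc
Ccng1 promoter: aggCTTGcccgggCAGGtct
The Gm41624 match (chr17:79728630-79728649) departed from the p53 element at 4 of 20 positions. The Gm29985 match (chr2:38988313-38988332), the Gm52524 match (chr2:115776907-115776926) and the Gm30448 match (chr9:114851947-114851966) each departed at 5. The Cdkn1a match (chr17:29090928-29090947) and the Ccng1 match (chr11:40755462-40755481) each departed at 1. The Cdkn1a and Ccng1 windows were picked from those with the closest matches, were searched over 300 bases and lie in peaks that carry a repeat. Not every such window held a close match. The Phlda3 start-site window, inside a WT-specific peak of 2465 bp, departed at 5 in its closest match over 300 bases.

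Matches as loose as those in the 4 peaks were common. Over 32851 start-site windows, the same place and length held a match at least as close in 15.98% for Gm41624, where 166 bases were searched, and in 17.3% for Gm29985, with 55 bases. The share was 61.2% for Gm52524, with 199 bases, and 61.7% for Gm30448, with 210 bases. An element with at most 1 mismatch and no spacer was held by 0.0883% of all windows, by 7 of 45 windows wholly inside a WT-specific peak (15.6%) and by 0 of 42 wholly inside a KO peak without a WT peak. Both strands were searched. No element with at most 2 mismatches was found in the searched stretches of the 4 peaks, which says nothing about the rest of these peaks or about the others, which were not searched.

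Most of the 216 peaks were short. Their median length was 354 bp (95% interval of the median 281 to 385), with the middle 50% between 223 and 498 bp and extremes of 189 and 1723 bp. Intergenic peaks had a median of 313 bp (272 to 374, n = 175), exon peaks 428 bp (243 to 516, n = 17) and 3' UTR peaks 428.5 bp (224 to 569, n = 24), so the intervals of the 3 features overlapped. All 2127 WT-specific peaks had a median of 454 bp (444 to 465). Intronic peaks without repeats, at 359 bp (313 to 388, n = 251), were within the interval of the 216, and promoter and 5' UTR peaks without repeats reached 413.5 bp (373 to 464, n = 216). Peaks of the same 3 features that held a long terminal repeat (LTR), the control region of an endogenous retrovirus, were longer, at 496 bp (471 to 512, n = 685), and those with other repeats had a median of 446 bp (413 to 505, n = 181). Length is not independent of the choice, since a longer interval has more bases in which a repeat can lie, and these intervals count peaks of 1 list rather than samples.

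The lower edge of the length range was well filled. Of the 216, 27 (12.5%) were at most 200 bp long, against 4.18% of all WT-specific peaks and 1.75% of the LTR-bearing ones. Among the other repeat-free classes the share was 7.17% for intronic and 4.63% for promoter and 5' UTR peaks. It was 14.2% among KO peaks without a WT peak, 10.5% among all KO peaks and 9.06% in the whole WT list. At the other end, 6 peaks (2.78%) reached 1000 bp, against 7.33% of all WT-specific peaks. Of the 27 shortest, 24 were intergenic, 1 was in an exon and 2 were in a 3' UTR. None of the 27 overlapped a KO peak, and 2 of the 6 longest did, against 3.34% of all WT-specific peaks. These counts are small, and a longer interval has more bases in which to meet a KO peak. Overlap by length was not counted in other classes, so nothing is read from this.

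**Figure D1:**
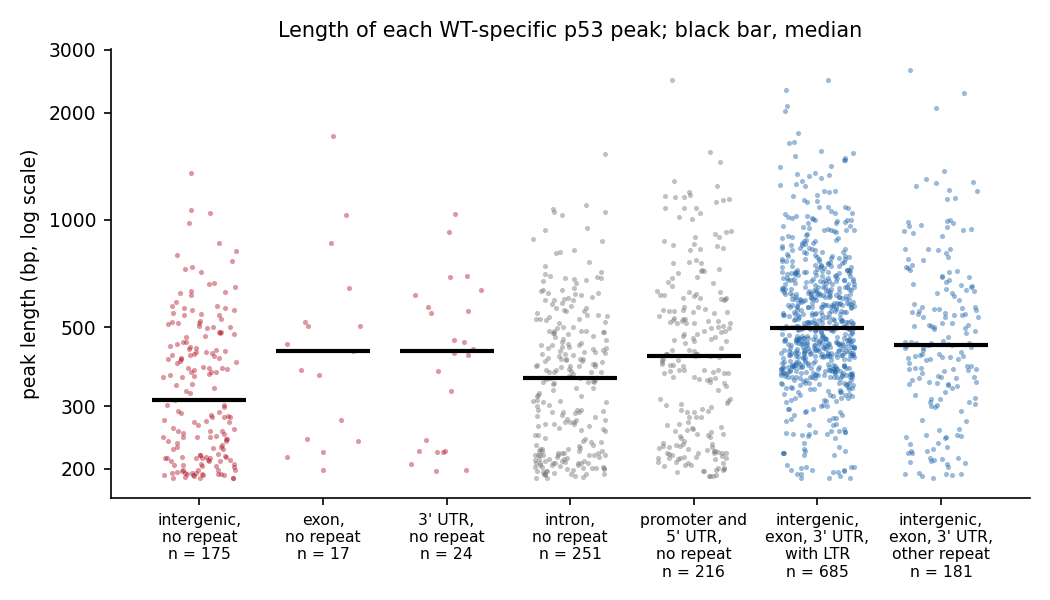
Length of each WT-specific p53 peak in bp on a log scale, by annotated feature and repeat content; each point is 1 peak, the black bar is the median, and sideways spread has no meaning. Intergenic peaks without repeats crowd toward 200 bp with a median of 313 bp, and LTR-bearing peaks have a median of 496 bp.

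Overlap with KO peaks was rare, as the choice of a WT-specific list largely sets: of all WT peaks, 59.4% overlapped a KO peak. A KO peak overlapped 8 of the 216 (3.70%, 95% exact binomial interval 1.61 to 7.17), against a background of 3.34% for all WT-specific peaks. The share was 3.98% (1.93 to 7.205) for intronic and 3.70% (1.61 to 7.17) for promoter and 5' UTR peaks without repeats. It was 1.31% (0.603 to 2.48) for LTR-bearing peaks of the same features and 7.73% (4.29 to 12.6) for those with other repeats, and the interval of the 216 overlapped both. Allowing 500 bp between the intervals still gave 8 peaks, and allowing 5 kb gave 30 (13.9%, 9.57 to 19.2), against 10.4% of all WT-specific peaks and 4.96% (3.46 to 6.87) of the LTR-bearing ones. The median distance to the nearest KO peak was 61.6 kb (41.0 to 83.3), close to the 56.3 kb of intronic and 60.1 kb of promoter and 5' UTR peaks without repeats. For LTR-bearing peaks it was 169 kb (142 to 194), an interval apart from that of the 216.

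**Figure D2:**
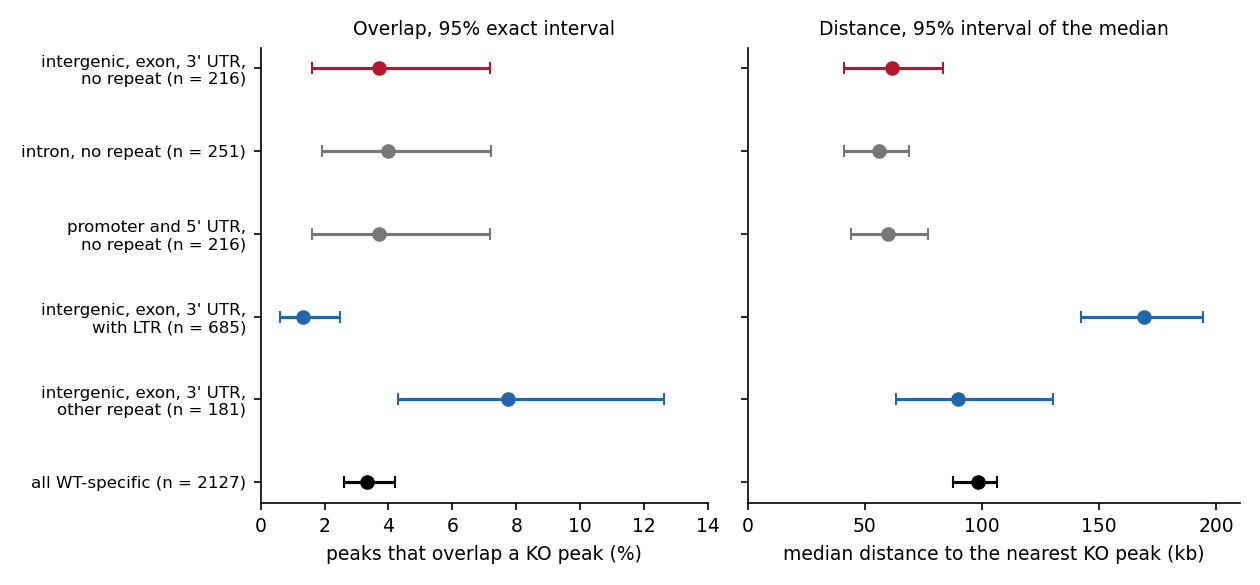
Left, the share of WT-specific peaks that share at least 1 bp with a KO peak, with 95% exact binomial intervals; right, the median distance in kb to the nearest KO peak, with 95% intervals from order statistics. The 216 peaks sit at 3.70% and 61.6 kb beside the other repeat-free classes, while LTR-bearing peaks sit at 1.31% and 169 kb.

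In all 8 overlaps the KO peak lay wholly inside the longer WT-specific interval. The largest shared part was at chr7:144970758-144971802, 30.9 kb from Ccnd1, the gene for cyclin D1, where a KO peak of 923 bp filled 88.3% of a 1045 bp peak. This was the only one of the 216 whose interval differed from that in the WT list: the WT peak began 13 bp later, and the WT-specific interval began at the first base of the KO peak. At chr10:59908008-59908354, 8.71 kb past Dnajb12, which encodes a co-chaperone of the endoplasmic reticulum, 217 bp filled 62.5% of 347 bp. The pair of overlaps on chromosome 13 were a KO peak of 407 bp in 663 bp (61.4%) inside the noncoding gene Gm33849, and 216 bp in 416 bp (51.9%) 12.7 kb from Zswim6. A KO peak of 227 bp took up 49.9% of a 455 bp peak in the pseudogene Pisd-ps2. A smaller share was 36.4% of a 539 bp peak on chromosome 12, 236 kb from Myt1l. The smallest was 11.7% of the 1723 bp exon peak of Syne1. At least 50% of the WT interval was thus covered in 4 of the 216 (1.85%).

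The intergenic peaks lay far from coding genes, about as far as intergenic peaks with repeats. Their median distance to the nearest protein-coding RefSeq span was 37.6 kb (26.5 to 53.6, n = 175), against 30.9 kb (25.8 to 37.4, n = 664) for intergenic peaks with an LTR and 31.2 kb (19.1 to 41.8, n = 165) for those with other repeats, and the 3 intervals overlapped. Of the 175, 4 were inside a coding span, 23 within 5 kb, 71 at 5 to 50 kb, 73 at 50 to 500 kb and 4 farther than 500 kb. With genes of every kind counted, the median over the 216 was 3.58 kb (2.40 to 6.75). Of the 216, 25 (11.6%) were over 50 kb from any RefSeq gene, against 9.07% of all WT-specific peaks, and 70 (32.4%) were inside a gene span, against 50.9%. The second contrast is set in part by the choice, which leaves out introns and promoters.

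**Figure D3:**
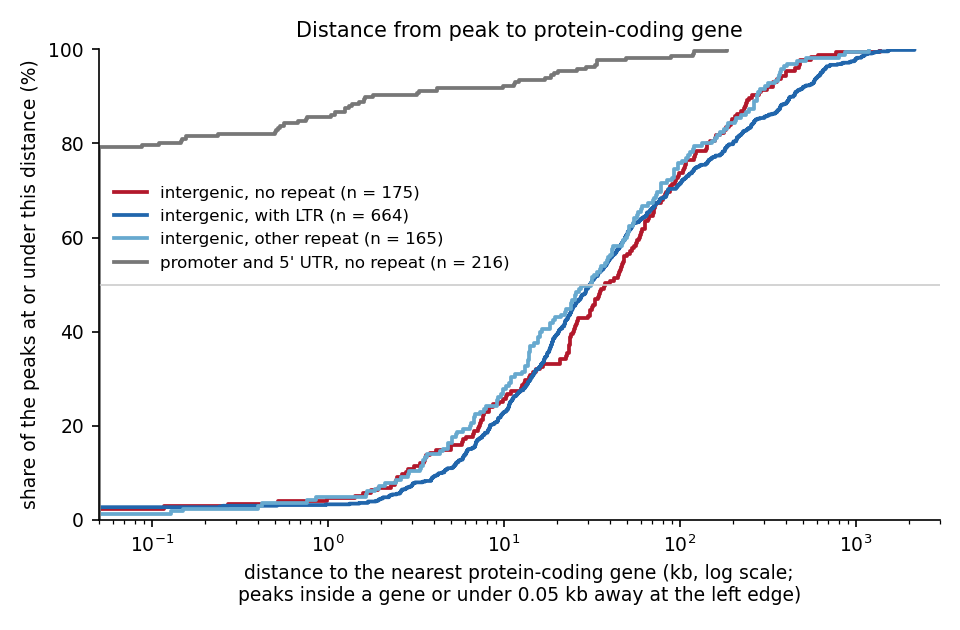
Cumulative share of peaks, in percent, against distance to the nearest protein-coding gene in kb on a log scale, for intergenic WT-specific peaks by repeat content and for promoter and 5' UTR peaks without repeats. The 3 intergenic curves run close together, with medians of 37.6, 30.9 and 31.2 kb, while most promoter and 5' UTR peaks are at the left edge.

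The authors' label of intergenic did not always hold against RefSeq. Of the 175 intergenic peaks, 30 (17.1%) overlapped a RefSeq gene, most often a long noncoding RNA gene (22 peaks), then 4 protein-coding genes, 2 transcribed pseudogenes, 1 pseudogene and 1 gene of another RNA class. The 4 coding genes were Taf8, which encodes a subunit of the general transcription factor TFIID, Cercam, Arhgap32 and Rarb, which encodes retinoic acid receptor beta. Their peaks were 410, 281, 204 and 512 bp long. The Rarb peak (chr14:17046818-17047329) was 164 kb from the nearest KO peak. Of intergenic, exon and 3' UTR peaks together, 13.1% of LTR-bearing ones and 18.2% of those with other repeats overlapped a RefSeq gene. Intergenic peaks of those classes were not counted apart. The gene models behind the authors' annotation were not given in the sources used here.

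Near coding genes, more peaks of known side lay past the end than before the start, a count with no test. The choice sets this in part, since it leaves out promoter and 5' UTR peaks. Peaks beside genes of unknown strand could also change the order, and no other peak class was counted this way. Of the 45 intergenic peaks inside or within 10 kb of a protein-coding gene, 18 were downstream, 11 upstream and 4 inside, and 12 were beside genes whose strand was not in the tables used. The closest downstream peaks were a 298 bp peak 118 bp past Slc34a3, a sodium-phosphate cotransporter, a 270 bp peak 270 bp past Ddit4 and a 484 bp peak 524 bp past Gabarapl1, an autophagy factor. Upstream peaks included 256 bp at 8.25 kb before Flt4, the lymphatic VEGF receptor, and 481 bp at 3.83 kb before Ptma. Counted from RefSeq start sites of all genes, with chromosome 18 left out because the window table lists none there, 90 of 173 intergenic peaks were upstream of the nearest start, 80 downstream and 3 at it. A start site lay within 5 kb of 34 of 211 peaks (16.1%, 11.4 to 21.8), against 22.9% of all WT-specific peaks and 11.2% (8.93 to 13.9) of LTR-bearing ones. The share was 17.7% (13.1 to 23.0) for intronic peaks without repeats. For intergenic, exon and 3' UTR peaks with other repeats it was 16.4% (11.3 to 22.7). The contrast with all WT-specific peaks is set in part by the choice, which leaves out promoters and 5' UTRs.

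Listed p53 targets were named or approached by a small number of the peaks. Across 6 lists with 149 target genes found in RefSeq, the authors' annotation gave 1 of the 216 peaks to a listed gene, Ercc5, against 2.82% of all WT-specific peaks. Within 5 kb of a listed gene span there were 4 peaks (1.85%), against 3.53%, and within 50 kb there were 8 (3.70%), against 4.89%. By list and within 5 kb, cell cycle arrest had Ier5, cell death had Phlda3, metabolism and stress had Ddit4 and DNA repair had Ercc5, while the lists for noncoding RNA and for membrane and signalling genes had none. The count by the authors' annotation was limited by the choice, since the 175 intergenic peaks carry no gene name there and only the 41 exon and 3' UTR peaks could be given to a listed gene. Promoter and intronic peaks, where such genes are often bound, are also outside the 216, so nothing is read from these shares.

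Phlda3, which encodes a p53-induced inhibitor of Akt, had a 478 bp peak at chr1:135770887-135771364, 1.75 kb past the end of the gene. It stood 3.18 kb from a 2465 bp WT-specific peak over the Phlda3 promoter, and no KO peak was within 21.0 kb. Ddit4, which encodes a stress-induced inhibitor of mTORC1, had a 270 bp peak at chr10:59949135-59949404, 225 bp from a 596 bp WT-specific peak that carries a B1F repeat, so a repeat-bearing and a repeat-free interval stood side by side. A further pair of the 216, of 347 and 796 bp, lay 41.3 and 47.2 kb past Ddit4 and closer to Dnajb12. Ier5, an immediate early response gene, had a 202 bp peak 2.64 kb past its end. At these 3 genes the peak of the 216 was downstream, and the choice had left out promoter and intronic peaks, among them the repeat-free one over the Phlda3 promoter. Binding at these genes was not only downstream. At Ddit4 another WT-specific peak spanned the 5' end of the gene, from -0.279 to 0.884 kb. At Phlda3 further WT-specific peaks lay before the gene, from -6.665 to -5.39 kb and from -1.812 to -1.568 kb.

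**Figure D4:**
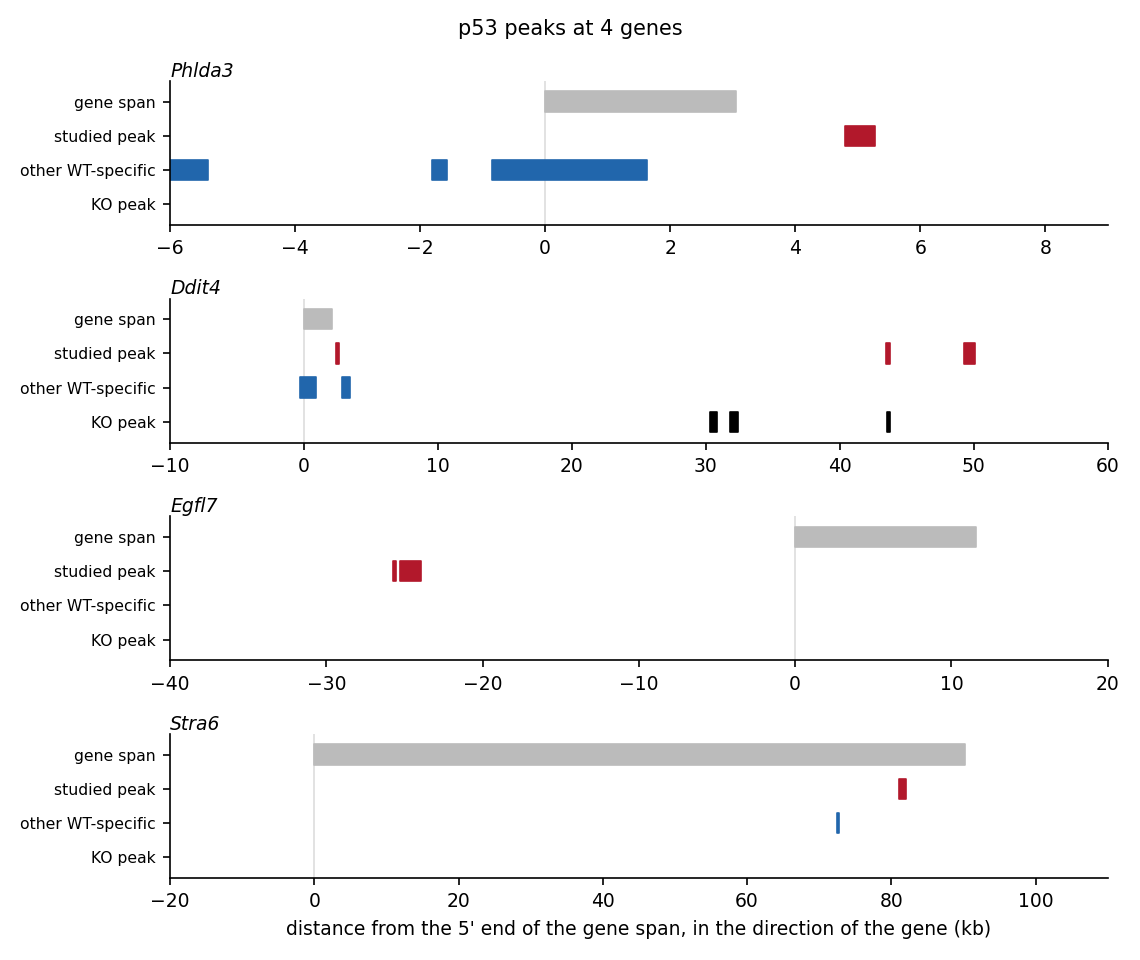
Maps of p53 peaks at Phlda3, Ddit4, Egfl7 and Stra6, in kb from the 5' end of the RefSeq gene span in the direction of the gene; red bars are peaks of the 216, blue bars other WT-specific peaks, black bars KO peaks and grey bars gene spans. The red peak is past the gene at Phlda3 and Ddit4, before the gene at Egfl7 and inside it at Stra6.

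Ercc5 encodes the XPG endonuclease of nucleotide excision repair. Its 547 bp peak at chr1:44148428-44148974 was annotated to a 3' UTR, yet its middle lay at 5.11% of the way along the RefSeq gene, 32.3 kb from the 3′ end and 0.683 kb past the nearest start site. The nearest KO peak was 243 kb away. Farther from their genes were Rap2b, a Ras-related GTPase gene, with a 211 bp peak 24.0 kb upstream, Tob1, an antiproliferative factor gene, with 233 bp at 48.9 kb, and Mr1 with the Ier5 peak at 34.1 kb.

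The other 5 lists held 164 genes, with 1 of the 216 peaks (0.463%) within 5 kb and 5 (2.31%) within 50 kb. Of all WT-specific peaks, 19 (0.893%) and 41 (1.93%) were that close. By nearest coding gene the shares were 4.17% of the 216 and 1.83% of all. No difference was tested. The nearest of these listed genes was Krt19, a keratin of simple epithelia, with a 373 bp peak at 0.992 kb. Lama5, a laminin chain, had a 572 bp peak 10.4 kb upstream, but a KO peak lay 0.801 kb from it. A 370 bp peak stood between the EGF receptor ligand genes Ereg and Areg, at 20.9 and 24.7 kb, and 3.03 kb from a longer WT-specific peak of 2265 bp. Of growth factor receptors, Fgfr2 was the nearest coding gene of 272 and 286 bp peaks at 63.5 and 248 kb. Among transcription factors, Nfe2l2, the oxidative stress regulator, had a 501 bp peak at 60.7 kb, Cebpb a 302 bp peak at 108 kb, Klf4 a 266 bp peak at 191 kb and Myc a 397 bp peak at 479 kb. No listed gene of innate immunity or of chromatin and repeat silencing had a peak of the 216 within 50 kb. Of all WT-specific peaks, only 7 (0.329%) and 4 (0.188%) were that close to these lists, so nothing is read from the absence.

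Of the exon and 3' UTR peaks whose gene strand was known, most lay in the 3′ part of their genes. The 3' UTR label sets this in part, and no other peak class was placed along its genes. Of the 41, 36 carried a gene name found in RefSeq, and all 36 overlapped that gene. The strand was known for 25, whose middles lay at a median of 82.9% along the gene, with 71.1% for the 12 exon and 86.6% for the 13 3' UTR peaks. Of the 25, 11 were within 5 kb of the 3′ end and 5 were in the first 50%. The 3' UTR peaks nearest to the end were at Sap30bp (0.299 kb from it), Flt4 (0.809 kb), Rdh16 (1.87 kb) and Usp48 (1.96 kb). Not every 3' UTR peak was near the end of the gene, since those of Mllt4, Zbtb46 and Mical3 were 49.98, 39.1 and 68.5 kb from it and that of Cdh18 was 110 kb from it. Such a label can refer to a shorter transcript, and the transcript used was not given in the sources used here.

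**Figure D5:**
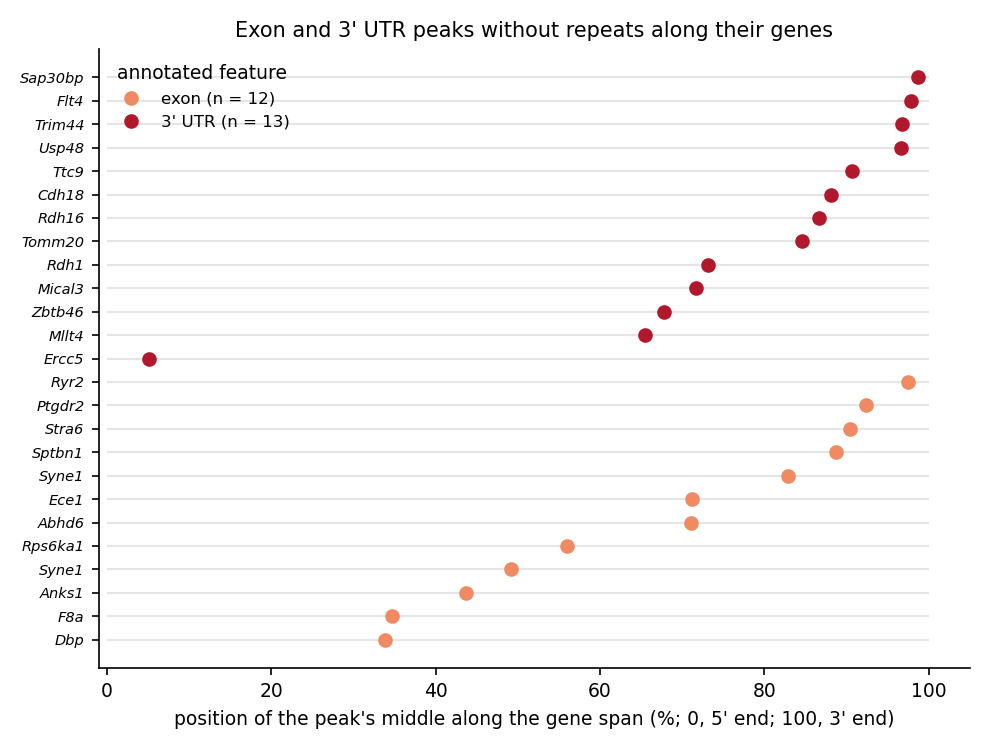
Position of the middle of each exon peak (orange, n = 12) and 3' UTR peak (red, n = 13) along its RefSeq gene span, in percent from the 5' end. Most points lie past 50%, and the 3' UTR peak of Ercc5 is at 5.11%.

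The longest of the 216 was at Syne1, which encodes nesprin-1, a giant protein that links the nucleus to the cytoskeleton. It spanned 1723 bp at chr10:5288939-5290661, 49.2% along the gene, and a second exon peak of 243 bp was 178 kb closer to the 3′ end. The next exon peak was at Stra6, the cell surface receptor for retinol uptake, with 1033 bp at chr9:58144832-58145864, 8.30 kb from an intronic WT-specific peak of 292 bp and 101.4 kb from the nearest KO peak. Tex15, a meiosis gene, had 860 bp, Krt33a, a hair keratin gene, 644 bp, and Sptbn1, a spectrin gene, 516 bp. The longest 3' UTR peaks were 1042 bp at Trim44, 925 bp at Arhgap26, 694 bp at Zbtb46, a zinc finger factor gene, and 634 bp at Ttc9. A 690 bp 3' UTR peak on chromosome 13 carried a clone-based gene name that RefSeq did not hold, and the nearest RefSeq gene was 106 kb away. Of these 10, the Syne1 peak overlapped a KO peak.

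The 10 longest intergenic peaks ranged from 729 to 1350 bp. The longest, chr2:26555802-26557151, lay 23.9 kb upstream of Egfl7, which encodes a secreted factor of endothelial cells, and 83.3 kb from a KO peak. It was followed by 1067 bp at 222 kb from Pappa, a metalloproteinase gene, the 1045 bp peak near Ccnd1 with its KO peak, 977 bp at 242 kb from Insc and 860 bp at 35.1 kb from Col18a1, a basement membrane collagen gene. A 766 bp peak was 2.46 kb from the cytokine gene Il25, a 737 bp peak was 10.9 kb from the histone demethylase gene Kdm4c, and a 729 bp peak on the X chromosome was 206 kb from Tex13c3. Of the 10, 1 overlapped a KO peak, and the Pappa peak had a KO peak 2.42 kb away.

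The 5 peaks farthest from any gene were between 189 and 426 bp long. At chr1:141991055-141991480 a 426 bp peak was 464 kb from the nearest RefSeq gene, a pseudogene, and 1377 kb from the coding gene Kcnt2. The next 4 were 189 bp long at 220 kb, 195 bp at 212 kb, 397 bp at 148 kb (the peak for which Myc was the nearest coding gene) and 385 bp at 141 kb. Their nearest KO peaks were 25.6 to 2085 kb away.

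Most of the 216 peaks had no close neighbour in the WT-specific list. Another WT-specific peak stood within 10 kb of 20 (9.26%, 5.75 to 13.9), against 15.1% of all WT-specific peaks and 18.5% (15.7 to 21.7) of LTR-bearing ones, whose interval did not reach that of the 216. The other classes were closer, with 7.87% (4.65 to 12.3) of promoter and 5' UTR and 13.1% (9.23 to 17.97) of intronic peaks without repeats and 12.7% (8.23 to 18.5) of peaks of the same 3 features with other repeats, and all of these intervals overlapped that of the 216. The median gap from the 216 to the next WT-specific peak was 192 kb (157 to 244). It was 226 kb for all WT-specific peaks and 222 kb for LTR-bearing ones, both within that interval. The other classes ran from 175 kb for intronic peaks without repeats to 251 kb for peaks of the same 3 features with other repeats. By this median the 216 were thus not more isolated. Of the 216, 32 were over 1000 kb from the next WT-specific peak, a count not made for other classes. In 14 of the 20 the neighbour was the longer interval, and its median was 762.5 bp against 367 bp for the 20 peaks. The neighbour was another of the 216 for 6 peaks, carried an LTR for 3 and another repeat for 8. The other 3 neighbours without a repeat were the promoter peaks of Phlda3 and Tubb4b and the intronic peak of Stra6.

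The 6 peaks that neighbour each other formed 3 pairs. Upstream of Egfl7 the 1350 bp peak had a 192 bp peak 286 bp away, and the nearest KO peak was 83.3 kb from the pair. They lay 23.9 and 25.6 kb from Egfl7, and their nearest RefSeq gene was the noncoding Gm36171, at 0.630 and 0.152 kb. Past Dnajb12, at 2.40 and 8.71 kb, peaks of 796 and 347 bp were 5513 bp apart. The shorter overlapped a KO peak, and its nearest RefSeq gene was the noncoding Gm40673 at 1.09 kb. On chromosome 4 peaks of 303 and 816 bp were 1830 bp apart and 401 kb or more from Gdf6, which encodes a bone morphogenetic protein. Close neighbours of another class included a 266 bp peak 447 bp from a 1303 bp repeat-bearing peak, with Klf4 as the nearest coding gene, and the 503 bp exon peak of Col12a1, a collagen gene, 515 bp from a 970 bp exon peak with a 5S repeat.

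Across chromosomes the 216 were spread as 0 to 23 peaks each. Chromosome 4 held 23 (10.6%, against 6.77% of all WT-specific peaks) and chromosome 2 held 21 (9.72%, against 7.05%). Chromosome 16 held 3 (1.39%, against 4.09%). None of the 216 was placed on the Y chromosome, where the list places 25 WT-specific peaks (1.18%). The line is of ovarian origin, so nothing is read from peaks placed there.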

How the data were processed

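The authors' deposited peak coordinates (chromosome, start and end in bp on mm10) were used, and per the file headers they carry no other value. Tools used upstream, per the submitters' processing notes, were deepTools, MACS2, Bowtie2 and fastp. Settings, pooling of the 2 samples per genotype and the rule for WT-specific peaks were not given in the sources used here, and read depth is unknown. Starts were read as 0-based and are printed 1-based. The shortest repeat overlap in the deposited annotation was 50 bp, so a shorter overlap could count as none.

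Overlaps of at least 1 bp and distances were computed in Python 3.11.15 (numpy 2.4.6, pandas 2.3.3, scipy 1.17.1, matplotlib 3.10.9) and tested on simulated data. Genes and start-site windows came from RefSeq GRCm38.p6 (49980 genes, 32851 windows). Exact binomial (Clopper-Pearson) and order-statistic 95% intervals cover counting over peaks only. With 1 list per genotype, no test between samples was made. The peaks and gene lists (313 genes found in RefSeq) were chosen with earlier results of these data known.

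Repeat-bearing comparison classes cover all 3 features, and promoter and 5' UTR classes leave out every repeat, which differs from the plan of LTR-based classes (4.61% of 304 promoter and 5' UTR peaks without an LTR and 1.36% of 664 intergenic peaks with an LTR overlapped a KO peak). Peaks were named by these rules: listed genes, the 10 longest intergenic, the 5 longest exon and 3' UTR peaks, those with a KO overlap, runs within 10 kb, and the 5 farthest from a gene. Where genes nearest to peaks or within 10 kb of them are named beyond these rules, they were chosen after their values were seen. In place of a motif search on a genome, start-site windows were searched, also chosen after seeing the data. A peak that these rules name is not reported here. Histone and IgG libraries were not analysed here.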

Additional observations from a re-analysis of the deposited data

How the results depend on the processing

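Across 6 results and 22 alternatives, 12 values stayed within their interval or within 1.5 times the reported count, and 10 moved. The share of the 216 peaks with a KO peak rose to 13.9% when a KO peak within 5 kb counted. The median distance to the nearest RefSeq gene was 24.0 kb with protein-coding genes only, 7.61 kb for intergenic peaks only and 27.2 kb to start sites, the last chosen after seeing the data. The share inside a gene span was 19.9% with protein-coding genes only. The count with a neighbouring WT-specific peak was 52 within 50 kb and 6 with only the 216 as neighbours. The count at listed p53 targets was 4 within 5 kb, 8 within 50 kb and 5 by nearest protein-coding gene. The planned motif alternatives on a genome were not run. No paired analysis was possible because each genotype has 1 peak list, and for the same reason no replicate could be left out. Without heights or read depth, the strength of a peak and the limit of detection are unknown.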

Other observations

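Values of 3' UTR peaks that the text has not yet given include those of the neighbouring retinol dehydrogenase genes Rdh1 and Rdh16, chosen after their values were seen. The Rdh1 peak was 197 bp long, with a KO peak 0.730 kb away. The Rdh16 peak was 206 bp long, with the nearest KO peak 46.5 kb away.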
